A study of Mus musculus with 4 samples.

Results

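The small-subunit cytosolic ribosomal protein genes were taken from the count table by name: Rpsa, Fau and every gene named Rps with a number and at most a short letter suffix, leaving out the S6 kinases and pseudogenes. This rule found 33 of the 12486 genes, namely the 32 genes of the ribosomal proteins of the 40S subunit and the paralog Rps27l. The naming rule uses no measured value, though the gene group was chosen with earlier results of these data known. All 33 passed the filter on low counts and were tested.

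The table held PRO-seq counts from mouse embryonic stem (mES) cells. PRO-seq labels nascent RNA during a nuclear run-on, here 3 min at 37 °C, so that a gene's count follows engaged RNA polymerase and not its steady-state mRNA. There were 2 control libraries, from untreated cells (0 h), and 2 depletion libraries, from cells kept for 6 h in 500 µM of the auxin 3-indoleacetic acid (IAA), described in the methods as biological replicates. The question was how transcription changes once Zfp574, a zinc-finger protein, is removed. Cells of both groups carried the same alterations: an auxin-inducible degron at the N terminus of Zfp574, in a clonal parental line that expresses the auxin receptor OsTir1 with ARF16 and mCherry from an EF1a promoter; knock-in cells were picked as clones, so that both groups also share the features of their clone. The line derives from originally haploid cells that had become diploid, was grown without feeders in serum with LIF, and *Drosophila* S2 cells amounting to 1% of the cells were added as a spike-in. Untagged cells given IAA were not analysed here, so an effect of auxin itself and of the loss of Zfp574 cannot be told apart.

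The control libraries held 3298864 and 3616429 counts in all, the depletion libraries 6045216 and 5670904, and replicates differed by more than sampling noise. Of 16 embryonic stem cell markers, 14 were in the table, all 14 were tested and 1, Utf1, fell (a call lost in DESeq2 with its own size factors and without control replicate 2 or either depletion library); their summed level was 5856 and 5793 CPM (counts scaled to a common library size) in the controls against 5920 and 5830 CPM after depletion. Of 22 endoderm, mesoderm, neural and fibroblast markers, 8 were in the table, of which 5 were tested, and none of these 5 passed the test in either direction in edgeR, DESeq2 or limma-voom, though 2 neural markers were higher at an unadjusted p under 0.05 in edgeR. Gata4, Gata6 and T were not analysed here. For Zfp574 itself, 80 and 130 counts in the controls stood against 195 and 219 after depletion; the degron acts on the protein, so this count does not measure its loss.

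The 40S subunit scans mRNA and decodes it. Its head and its body with the platform are built from 18S ribosomal RNA and a fixed set of proteins, and the decoding centre and the mRNA channel lie between these parts. Genes of ribosomal proteins are transcribed at high rates in growing cells such as mES cells, are short, often host snoRNA genes in their introns, and many start within a run of pyrimidines, the 5′ terminal oligopyrimidine (TOP) tract through which mTOR signalling controls translation of their mRNAs.

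The promoter stretches below are shown because Rps9 and Rps27l, the members with the largest falls, held short sequences that recurred in promoters of genes lowered by 2-fold or more. Promoters (250 bases before to 50 after the start) came from RefSeq on GRCm38.p6, the build also called mm10, and matched 25 of the 33 members; Rps14, Rps20, Rps27a and Rps29 were among those without a match. Of the 38 genes lower by at least 2-fold, none a member, 34 had a promoter. Among 8-base sequences on either strand, ranked by the difference between their share of these 34 promoters and of the others, CCATAGAG came first, with 10 of 34 against 1.09% of all 9295 promoters, and CGCTCTAG was next once shifted copies were set aside, with 8 of 34 against 1.44%. By the ratio of shares the order differs: ACCATAGA, a shifted copy, was in 8 of 34 against 0.753%, and TCTAGCCA in 6 of 34 against 0.968%. Both were chosen on fold changes of this same comparison, after values had been seen, and are given without a test. In the lines below capitals mark either sequence or its reverse complement.

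Rps9: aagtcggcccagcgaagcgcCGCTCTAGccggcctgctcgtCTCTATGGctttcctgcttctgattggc
Rps27l: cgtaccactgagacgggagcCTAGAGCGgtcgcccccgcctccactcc
Xrn1: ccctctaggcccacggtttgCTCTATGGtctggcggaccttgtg
Rpl10: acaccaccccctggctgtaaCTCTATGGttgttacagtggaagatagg

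The Rps9 stretch is chr7:3703894-3703962 on the plus strand, and its marked sequences begin 127 and 106 bases before the RefSeq start, or 79 and 58 bases before the start of the GENCODE transcript. The Rps27l stretch is chr9:66946020-66946067 on the plus strand, with its marked sequence 46 bases before the start. Those of Xrn1 (chr9:95954726-95954769) and Rpl10 (chrX:74270774-74270821), both on the plus strand, are shown for comparison because these genes were among the 34; their marked sequences begin 14 and 22 bases before the RefSeq start. Rps9 was the only member with CCATAGAG and, with Rps27l, the only member with CGCTCTAG, so that 23 of the 25 members with a promoter held neither. Of all 9295 promoters, 3 held both sequences, those of Rps9, Ilk and Tbc1d12.

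A second feature concerns the start itself. The TOP-like pattern, C followed by T and 3 more C or T from the annotated start on the strand of the gene, was found in 6 of 25 members, those of Fau, Rps10, Rps15a, Rps18, Rps21 and Rps6, against 1.45% of all promoters. A run of at least 8 C or T within 50 bases of the start was present in 19 of 25 members against 31.0% of all promoters. Of 39 large-subunit promoters, 6 had the TOP-like pattern and 31 such a run, so neither feature is particular to the small subunit. The lines below give 15 bases on each side of the start, with the longest run of C or T in capitals, for 4 members with the TOP-like pattern and for Rps9, whose annotated start lies inside a run of T and C but does not have the pattern.

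Fau: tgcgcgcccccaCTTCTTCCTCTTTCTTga
Rps18: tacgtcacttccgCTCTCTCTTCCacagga
Rps6: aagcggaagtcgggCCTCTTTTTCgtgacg
Rps10: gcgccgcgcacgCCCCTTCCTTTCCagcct
Rps9: accgccttgTCTCTCTTTgtctcgggcctg

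These stretches are chr19:6057932-6057961 (plus strand) for Fau, chr17:33955651-33955680 (minus) for Rps18, chr4:86857353-86857382 (minus) for Rps6, chr17:27635230-27635259 (minus) for Rps10 and chr7:3704026-3704055 (plus) for Rps9. Of the 6 members with the TOP-like pattern, 1, Rps10, fell past the test described next, as did 6 of the 19 members without it. The pattern depends on the exact base of 1 RefSeq start. GENCODE starts of Fau (6057844), Rps10 (27635545) and Rps6 (86857412) lie outside the stretches shown. Members scored without the pattern may therefore still have a TOP start, and the share called among all promoters with it was not computed.

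After depletion, transcription of 7 of the 33 members fell and none rose at an adjusted p under 0.05 (edgeR's quasi-likelihood test on TMM-scaled counts, Benjamini-Hochberg adjustment over all 11853 genes tested). Of all genes tested, 1.4% were lower and 1.11% higher by this rule. At an unadjusted p under 0.05, 19 members were lower and none higher, against 7.66% of all genes lower and 8.53% higher. The 7 genes were Rps9, Rps27l, Rps10, Rps23, Rps7, Rps4x and Rpsa, and Rps9 stood apart with a log2 fold change of -0.72, while the other 6 fell by between 0.24 and 0.48. The calls other than that of Rps9 were not stable: DESeq2 with its own size factors called Rps9 alone, limma-voom called 8 members, and leaving out 1 library left 5 (without control replicate 1), 10 (without control replicate 2), 2 (without depletion replicate 1) or 1 (without depletion replicate 2). No member passed the added limit of a 2-fold change, which 0.321% of all genes did in the downward direction, and no member's 95% interval reached a 2-fold fall. The median log2 fold change of the 33 members was -0.17, against -0.002 for all genes tested, and 32 of 33 were below 0, against 50.6% of all genes. In bulk nuclei, fewer cells transcribing a gene and less transcription per cell cannot be told apart.

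**Figure D1:**
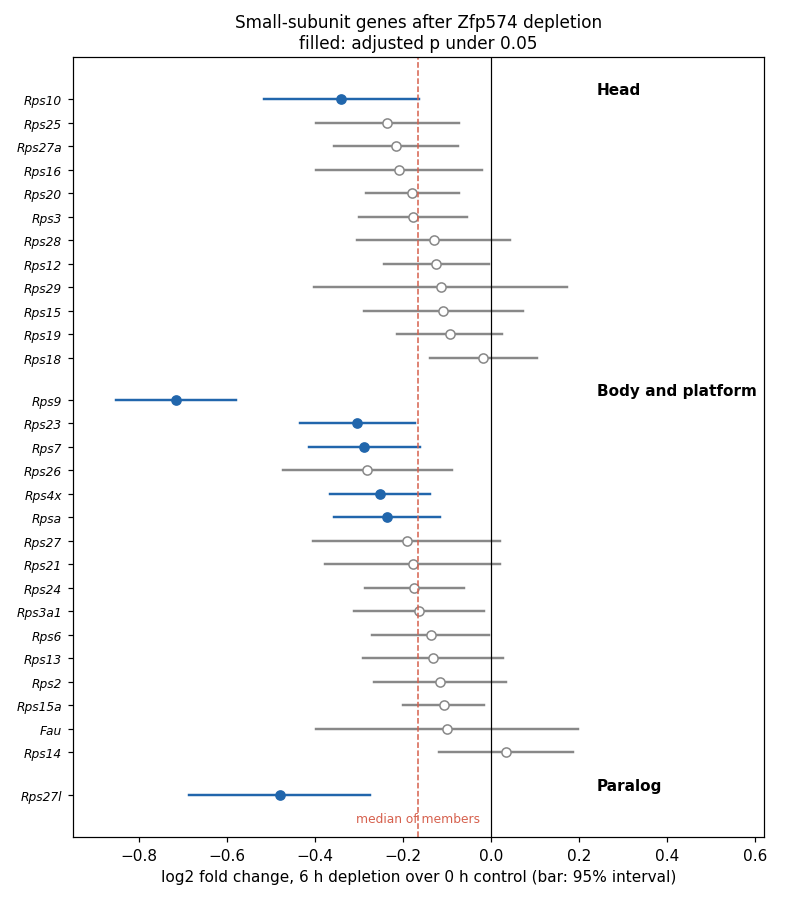
Log2 fold change (6 h depletion over 0 h control, horizontal axis) of 29 of the 33 small-subunit genes, grouped into proteins of the head, of the body and platform, and the paralog Rps27l. Points are estimates from edgeR, bars their 95% intervals, filled points genes past an adjusted p of 0.05, and the dashed line the median of all 33 members (-0.17); the interval of Rps9 overlaps no other interval except that of Rps27l.

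Rps9 encodes a protein of the body (uS4) that helps to form the entry of the mRNA channel (ENSMUSG00000006333, chromosome 7, 3703993 to 3706897, plus strand, mm10, 5 exons). Its 803 and 783 counts in the control libraries compare with 808 and 792 in the deeper depletion libraries, or 241 and 214 CPM against 136 and 141 CPM. Both depletion libraries thus lay far below both controls. Means were 228 ± 19.5 CPM (SD, n = 2) and 138 ± 3.69 CPM, a fall of 39.1%. The log2 fold change was -0.72 (standard error 0.07, 95% interval -0.85 to -0.58, adjusted p 3.42e-08 in edgeR).

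A measure that does not depend on how libraries are scaled gave the same order. Relative to the summed counts of the other 32 members in the same library, Rps9 amounted to 3.66% and 3.40% in the controls and to 2.33% and 2.49% after depletion. Rps9 was called in all 4 fits that left out 1 library, with log2 fold changes of -0.80 to -0.63 and a highest adjusted p of 0.000113, and in each of the 14 other settings tried, these 4 included. The 4 tested genes nearest to Rps9, namely Tsen34, Mboat7, Tmc4 and Leng1, did not pass the test, with log2 fold changes of -0.28, 0.12, 0.05 and 0.02. They had few counts and standard errors of 0.19, 0.16, 0.25 and 0.21, so a moderate fall in them could be missed.

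Rps3 (uS3, in the head) and Rps2 (uS5), which also lie at the mRNA entry, did not pass. Rps3 had 304 and 284 CPM in the controls against 269 and 251 CPM after depletion, a log2 fold change of -0.18 (adjusted p 0.115 in edgeR). Rps2 had 115 and 115 CPM against 104 and 108 CPM, a log2 fold change of -0.12 (adjusted p 0.461). Their 95% intervals, -0.30 to -0.05 and -0.27 to 0.03, do not overlap that of Rps9.

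Rps27l, a close paralog of Rps27 known as a p53 target gene, had the next largest fall (ENSMUSG00000036781, chromosome 9, 66946086 to 66949512, plus strand). It was counted 205 and 258 times in the controls against 288 and 261 after depletion, or 61.6 and 70.4 CPM against 48.4 and 46.5 CPM. The groups did not overlap, and the controls differed from each other more than the depletion libraries did. The log2 fold change was -0.48 (standard error 0.10, adjusted p 0.0054 in edgeR). The call was lost without control replicate 2 (-0.38, adjusted p 0.0721), without depletion replicate 1 (-0.51, 0.0633) and without depletion replicate 2 (-0.45, 0.103). Rps27 itself, a zinc-binding protein of the body, had 76.3 and 62.2 CPM against 56.3 and 64.8 CPM, so that its groups overlapped. Its log2 fold change was -0.19 (95% interval -0.40 to 0.02), and the difference from Rps27l was not tested.

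Among the 18 genes of the body and platform, 4 fell besides Rps9. Rps23 (uS12), whose protein reaches into the decoding centre (chromosome 13, 90922958 to 90924950, plus strand), had 192 and 182 CPM in the controls against 154 and 149 CPM after depletion, a log2 fold change of -0.30 (standard error 0.06, adjusted p 0.0058 in edgeR). Rps7 (eS7), a protein with a role in 18S rRNA maturation (chromosome 12, 28630854 to 28635953, minus strand), had 215 and 209 CPM against 176 and 171 CPM, a log2 fold change of -0.29 (standard error 0.06, adjusted p 0.0069). In both genes the replicates lay close together and the groups did not overlap, and both calls were lost without depletion replicate 1 (adjusted p 0.0967 and 0.110) and without depletion replicate 2 (0.152 and 0.183).

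Rps4x (eS4), the X-linked member (chromosome X, 102184941 to 102189394, minus strand), had 344 and 326 CPM in the controls against 284 and 278 CPM after depletion, a log2 fold change of -0.25 (standard error 0.06, adjusted p 0.0097 in edgeR; 0.156 without depletion replicate 1 and 0.229 without depletion replicate 2). Rpsa (uS2), also known as the laminin receptor precursor (chromosome 9, 120127689 to 120132369, plus strand), had 354 and 318 CPM against 290 and 280 CPM, a log2 fold change of -0.24 (standard error 0.06, adjusted p 0.0248). Its controls differed by more than its depletion libraries, the groups did not overlap, and the call was lost without control replicate 1 (adjusted p 0.229), depletion replicate 1 (0.186) or depletion replicate 2 (0.338). The remaining 13 genes of this list did not pass; they included Rps6, the substrate of the S6 kinases, at -0.14 (adjusted p 0.292), and Rps26, which lies at the mRNA exit, at -0.28 (adjusted p 0.112), with 97.1 and 77.5 CPM in the controls against 72.2 and 70.8 CPM after depletion.

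In the head, 1 of 14 genes fell. Rps10 (eS10), a protein near the mRNA entry (chromosome 17, 27630418 to 27635545, minus strand), had 115 and 101 CPM in the controls against 91.2 and 78.7 CPM after depletion. Both groups spread by over 12 CPM, and the lower control lay above the higher depletion library. The log2 fold change was -0.34 (standard error 0.09, adjusted p 0.0272 in edgeR), and the call was lost without control replicate 1 (-0.25, adjusted p 0.220) or depletion replicate 2 (-0.24, 0.374). The median was -0.15 over the 14 genes of the head and -0.17 over the 18 genes of the body and platform.

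Both depletion libraries lay below both controls in CPM for 25 of 33 members, against 22.9% of all genes tested, and above both for none. The 95% interval lay wholly below 0 for 19 members (7.66% of all genes) and included 0 for 14. Standard errors ranged from 0.05 for Rps15a, which had the most counts, to 0.15 for Fau, which had the fewest.

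Members at the other end of the range included Rps14, Rps18, Rps19 and Fau. Rps14, a platform protein, was the one member above 0, with 124 and 121 CPM in the controls against 118 and 132 CPM after depletion, a log2 fold change of 0.03 (95% interval -0.12 to 0.19), and it turned to -0.07 with the size factors that the deposited table implies and to -0.00035 with library totals. Rps18 (uS13), a head protein at the contact with the large subunit, had 241 and 241 CPM against 244 and 232 CPM, a log2 fold change of -0.02 (95% interval -0.14 to 0.10). In both genes the groups overlapped. Rps19 (-0.09), altered in Diamond-Blackfan anemia, and Fau (-0.10), which encodes a ubiquitin-like protein fused to the ribosomal protein eS30, had intervals that included 0. Rps27a, the other gene that encodes a fusion, with ubiquitin itself, had 159 and 156 CPM against 142 and 129 CPM, a log2 fold change of -0.22 (adjusted p 0.096 in edgeR).

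Levels are compared between genes only as CPM per kb of the annotated gene. In the controls the members ranged from 14.6 to 127 CPM per kb, with a median of 58.4. The highest were Rps12 (127 ± 4.76, SD, n = 2), Rps20 (117 ± 5.01) and Rps23 (93.9 ± 3.45), and the lowest were Fau (14.6 ± 0.09), Rps29 (18.5 ± 2.78) and Rps27l (19.3 ± 1.82). Of the 32 pairs of neighbours in this order, 20 had control libraries that overlapped, Rps29 and Rps27l among them, while both controls of Rps12 lay above both of Rps20. Rps9 ranked 5th of 33 in the controls (78.3 ± 6.72 CPM per kb) and 20th after depletion (47.6), the largest move in rank. Across the 33 genes the Spearman rho of the log2 fold change was -0.12 with the control level per kb, -0.13 with gene length and 0.44 with GC content, as a description over genes that share libraries.

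**Figure D2:**
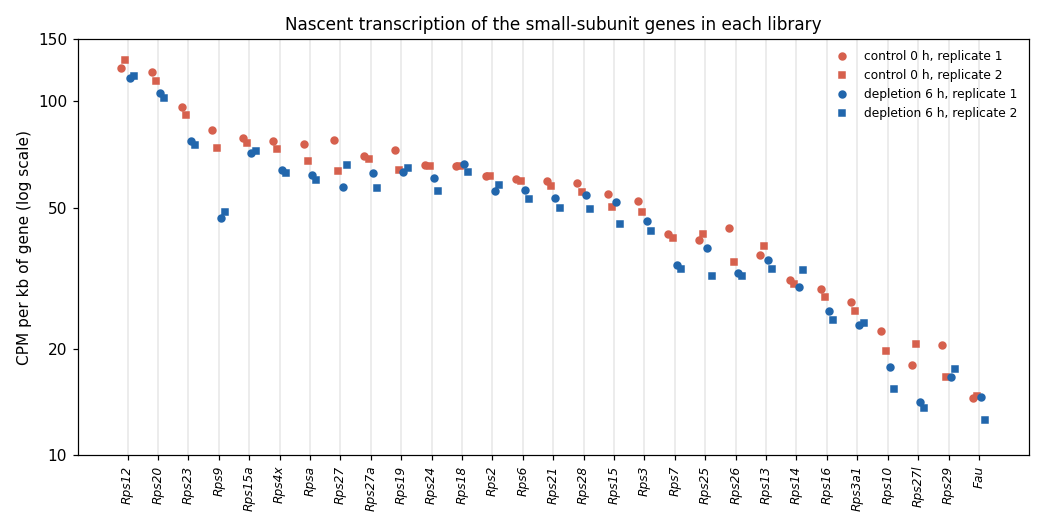
CPM per kb of annotated gene length (vertical axis, log scale) of 29 of the 33 small-subunit genes, ordered by its mean in the controls, with 1 point for each of the 2 control and 2 depletion libraries. The libraries of most genes lie close together, whereas the depletion points of Rps9 (mean 47.6) lie well below its controls (mean 78.3).

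The members together took 0.689% and 0.659% of the total counts in the control libraries against 0.588% and 0.576% in the depletion libraries. Without Rps9 their summed level was 6591 and 6292 CPM against 5834 and 5668 CPM. The summed level was thus lower also without the most changed gene, and the median of the other 32 members was -0.16.

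The median changed with the scaling, which moves all genes alike. With size factors recovered from the authors' table, which differ between replicates although the methods describe 1 spike-in factor per condition, the median of the members was -0.27 and that of all genes -0.11. By this scaling 19 members were lower and none higher at an adjusted p under 0.05, against 5.89% of all genes lower, and both depletion libraries lay below both controls for 32 of 33 members, against 42.5% of all genes. The gap between the members' median and that of all genes, which such scaling leaves in place by construction, was -0.16 with TMM, -0.09 with the length and GC offsets described below, and from -0.21 to -0.13 when 1 library was left out.

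**Figure D3:**
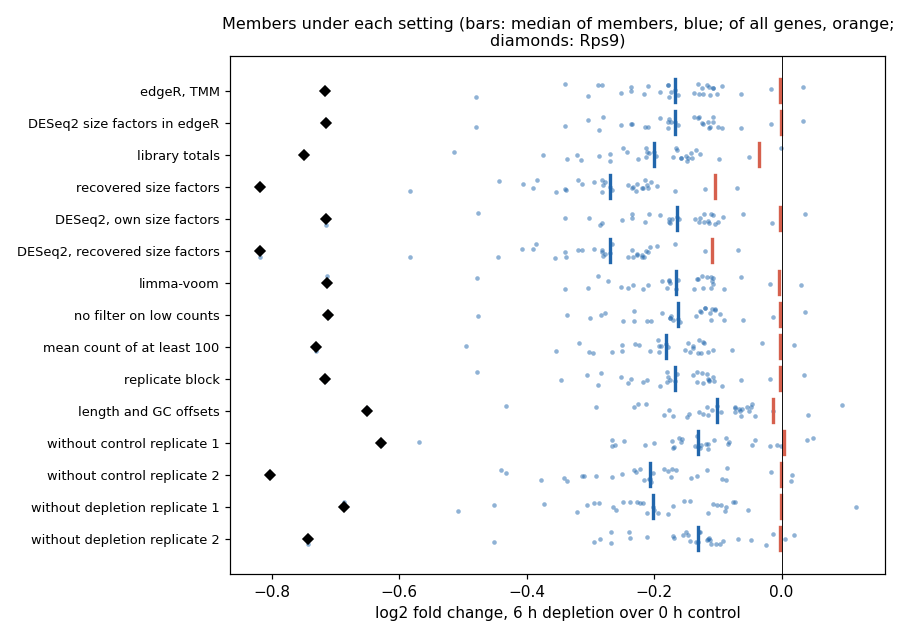
Log2 fold changes (horizontal axis) of the 33 members under each of 15 settings, with a blue bar at the median of the members, an orange bar at the median of all genes and a diamond for Rps9. The medians of the members lie between -0.27 and -0.10, and Rps9 lies between -0.82 and -0.63.

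Gene length moved with fold change and the members are short. All but 1 of the members, Rps15a, fell into the shortest 2 length deciles of the genes tested, in which the median of all genes was -0.06 (shortest) and -0.07 (next). The 21 members of the shortest decile had a median of -0.13 and the 11 of the next -0.18, and 31 of 33 members lay below the median of all genes in their own decile. With offsets for a trend on length and GC content, the median of the members was -0.10 and that of all genes -0.01, and 2 members were called, Rps9 (-0.65, adjusted p 4.55e-07 in edgeR) and Rps27l (-0.43, adjusted p 0.0214).

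**Figure D4:**
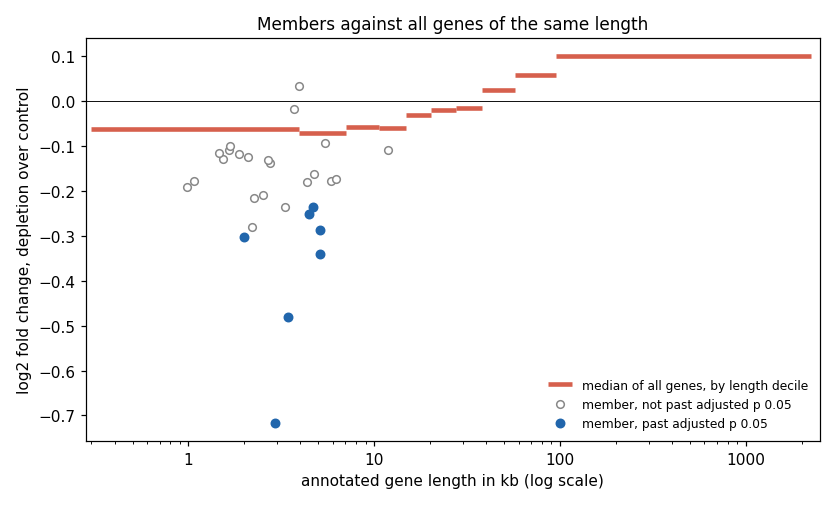
Log2 fold change (vertical axis) against annotated gene length in kb (horizontal axis, log scale) of 29 of the 33 members, with orange lines at the median of all genes in each length decile. Filled points mark members past an adjusted p of 0.05; the called members lie at least 0.17 below the median of genes of like length.

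The genes of the small subunit have many processed copies in the genome, and reads with more than one best place were not counted. Of the 28-base windows of each of 29 members, a median of 37.0% were unique in the genome where the window lay in exons, from 0.42% in Rps27 to 90.2%, and 97.9% elsewhere (87.2% to 99.7%). Exon windows made up a median of 7.42% of the unique windows of a member (range 0.14% to 81.7%). Levels per kb take in all bases and are therefore understated where few windows are unique. For Rps9 41.9% of the exon windows and 98.5% of the others were unique. A snoRNA gene lay inside 10 of the members but not in Rps9.

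For 7 of the 29 members reported singly, another gene of the table started within 1 kb in the opposite direction. The share of all genes with such a partner was not computed. These pairs were Fau and Mrpl49, Rps13 and Gm44777, Rps18 and Vps52, Rps2 and Snhg9, Rps25 and Trappc4, Rps27a and Clhc1, and Rps28 and Ndufa7. None of the 7 partners passed the test, by which 1.4% of all genes were lower and 1.11% higher, and none of these 7 members did. Standard errors of the partners ranged from 0.07 (Ndufa7) to 0.23 (Trappc4), and most had few counts, so falls of the members' size could be missed. The partners ranged from -0.35 (Mrpl49, 52 and 46 counts against 58 and 69) to 0.02 (Vps52). The 7 members called lower thus had no such partner, which was not tested and can occur by chance with so few genes.

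Other sequences in the promoters were described in the same way, on both strands. CCGGAAG, bound by ETS factors, was present in 11 of 25 members and in 19.2% of all promoters. AAGATGG, bound by YY1, was in 6 of 25 against 7.48%, GGGCGG, bound by Sp1, in 14 of 25 against 66.0%, CACGTG, the E-box, in 0 of 25 against 10.6%, and TATAAA in 2 of 25 against 6.81%. Of 39 large-subunit promoters, 14 held CCGGAAG, 5 AAGATGG, 26 GGGCGG, 5 CACGTG and 5 TATAAA. The 11 members with CCGGAAG had a median log2 fold change of -0.24, with 4 called, and the 14 without it -0.15, with 3 called. For GGGCGG the medians were -0.178 with it (5 of 14 called) and -0.174 without (2 of 11). For AAGATGG they were -0.200 (1 of 6) and -0.174 (6 of 19), and for TATAAA -0.123 (0 of 2) and -0.178 (7 of 23). These splits were not tested, and the share called among all genes with each of these sequences was not computed. Outside the genes lower by 2-fold, from which the pair of 8-base sequences was chosen, 91 genes held CCATAGAG, Rps9 included. Of these, 14 were lower and 4 higher at an adjusted p under 0.05 in edgeR. Of the 126 that held CGCTCTAG, 10 were lower and 4 higher. Of the 9047 that held neither, 82 were lower and 94 higher. The genes outside the 2-fold calls were the contrast when the sequences were chosen, and their fold changes come from the same libraries. These counts are therefore no independent check of the sequences and were not tested. The other genes with both sequences were Tbc1d12, which fell by 0.63 (adjusted p 0.000767), and Ilk, at -1.02 (standard error 0.46, adjusted p 0.261).

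Genes that make or use the 40S subunit were examined as lists. Of 43 genes of the small-subunit processome, which assembles on the nascent rRNA, 2 fell and none rose, with a median of -0.04: Wdr75 went from 36.1 and 29.5 CPM to 18.3 and 19.8 CPM (log2 fold change -0.78, adjusted p 0.00115 in edgeR), and Nop56, a core protein of box C/D snoRNPs, from 289 and 279 CPM to 236 and 251 CPM (-0.22, adjusted p 0.0385). Of 12 late assembly factors of the 40S subunit 1 fell and none rose, with a median of 0.05. This was Bysl, with 39.4 and 39.8 CPM against 30.2 and 28.1 CPM (-0.44, adjusted p 0.0438).

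Among the 20 tested initiation factors that bind the 40S subunit, 2 fell and none rose, with a median of -0.08. Eif3g, a subunit of eIF3 near the mRNA entry, went from 16.5 and 15.6 CPM to 5.71 and 7.30 CPM (log2 fold change -1.30, adjusted p 0.000239 in edgeR). Eif2s1, the alpha subunit of eIF2, went from 29.5 and 33.3 CPM to 20.3 and 19.9 CPM (-0.64, adjusted p 0.0070). Of 8 S6 kinase and TOP mRNA regulators none passed the test in either direction, also at an unadjusted p under 0.05 or in DESeq2 and limma-voom, with a median of -0.03. In all these lists together 2 genes were higher at an unadjusted p under 0.05, and none at the adjusted threshold in DESeq2 or limma-voom. Eif3g was called in every setting that tested it, whereas in DESeq2 with its own size factors Wdr75, Nop56, Bysl and Eif2s1 were not called, and each of them also lost its call when some libraries were left out: Wdr75 without depletion replicate 1, Nop56 without control replicate 1 or either depletion library, Eif2s1 without control replicate 2 or either depletion library, and Bysl without any one of the 4.

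The large-subunit genes are given beside them by the same rule. Of 52, 9 fell and none rose, with a median of -0.15, and 50 were below 0; the count of 9 became 5 in DESeq2 with its own size factors, 31 with the recovered factors, 14 without control replicate 2 and 5 without depletion replicate 2. Rpl10 (-1.30), Rpl10l (-1.60), Rpl36a (-0.56), Rpl18 (-0.43) and Rpl7l1 (-0.50) had the smallest adjusted p, and the first 2 of these passed the 2-fold limit, which no small-subunit gene did. Rpl10l had a low level, 20.1 and 17.2 CPM in the controls against 6.05 and 6.23 CPM after depletion. Uniqueness was not computed for large-subunit genes, so whether reads of Rpl10 and Rpl10l are told apart was not examined. Of 29 tested genes of the mitochondrial small subunit 1, Mrps10 (-1.20, adjusted p 5.39e-06 in edgeR), fell and none rose, with a median of -0.09; 2 fell without control replicate 2.

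**Figure D5:**
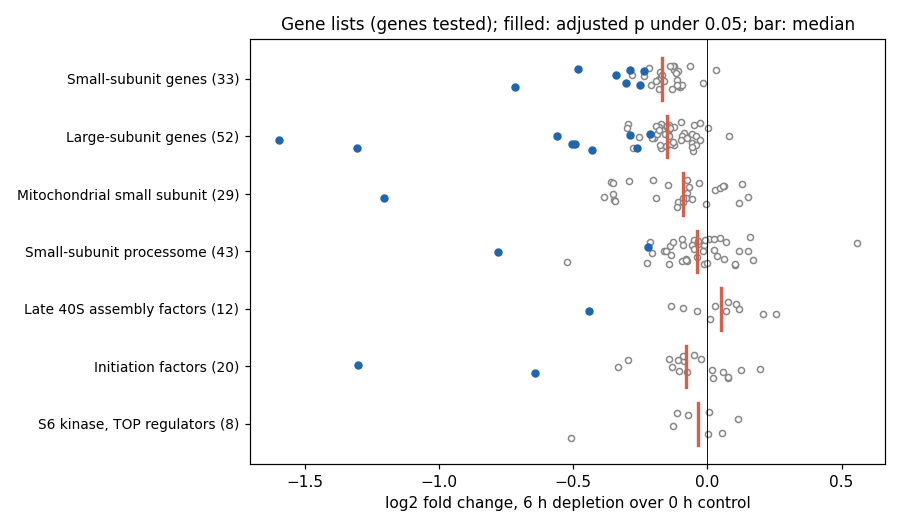
Log2 fold changes (horizontal axis) of the genes tested in the small-subunit list and 6 related lists, with the number tested after each name. Filled points passed an adjusted p of 0.05, bars mark list medians; the medians of the small- and large-subunit genes, -0.17 and -0.15, lie lowest.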

How the data were processed

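Counts of PRO-seq reads per gene were taken from 4 libraries, grouped by labelled treatment. Per the labels and methods, the authors separated unique molecular identifiers, trimmed adapters (cutadapt 1.18), mapped reads to mm10 with Bowtie 1.2.2, kept reads with 1 best place, collapsed them by identifier and deposited whole-number counts over Ensembl 100 genes with CAGE-corrected starts. They also deposited a DESeq2 comparison, whose fold changes and p-values were not used. Its mean normalized signal, a column the authors deposited, served only to recover their size factors by regression on the counts (0.699 and 0.740 for the controls, 1.32 and 1.24 for the depletion libraries).

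Genes were filtered with filterByExpr (minimum count 10, minimum total 15), which left 11853 of 12486, scaled with TMM and tested two-sided by quasi-likelihood in edgeR 4.0.16 (R 4.3.3), with no term besides condition. Standard errors are implied by the F statistic. CPM is per TMM-adjusted library size. Intervals rest on the spread between n = 2 libraries a group, moderated by that of all genes (median total residual degrees of freedom 27.0). They therefore depend largely on the spread of other genes, not on each gene's own libraries alone. Named were the members past an adjusted p of 0.05, the 5 smallest adjusted p, the 5 largest and 5 smallest falls, the 3 highest and 3 lowest levels per kb, the paralog, and in related lists up to 5 genes past the test; Rps2, Rps3, Rps6, Rps26, Rps27, Rps27a, partners and neighbours were named after their values were seen. Alternatives covered scaling, test (DESeq2 1.42.0, limma-voom in limma 3.58.1), filter, replicate block, length and GC offsets, thresholds and leaving out each library. Of the members, 4 enter the sums, counts and medians but are not reported singly here. Members and lists were chosen with earlier results of these data known. Positions and lengths are of 1 GENCODE M21 transcript per gene, chosen by its support; these lack the authors' corrected starts. The scripts were tested on simulated data.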

Additional observations from a re-analysis of the deposited data

How the results depend on the processing

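At an adjusted p under 0.05 no member was higher in any setting, and none passed 2-fold. The count of lower members, 7, rose to 19 with the recovered size factors and to 14 with the replicate block, and fell to 1 in DESeq2 with its own size factors and to 2 with length and GC offsets; thresholds of 0.01 and 0.1 on the adjusted p gave 5 and 10. When 1 library was left out, the remaining lone library being assumed to vary like the others, it ranged from 1 (without depletion replicate 2) through 2 (without depletion replicate 1) and 5 (without control replicate 1) to 10 (without control replicate 2). The members' median of -0.17 became -0.20 under library totals, -0.27 under the recovered factors in both edgeR and DESeq2, and -0.10 under length and GC offsets, and ranged from -0.21 to -0.13 when 1 library was left out. Recovered factors and totals shift all genes by construction; for the other changes the cause was not tested. Same-numbered libraries deviated from their group means with a correlation of 0.03 over the genes tested. This value cannot decide whether the numbers mark pairs, because noise in low counts can hide a pairing. The labels do not say what a number shares, so the fit with the replicate block is given only as an alternative. Values close to 0 changed sign: Rps14 to -0.00035 with library totals, -0.069 and -0.068 with the recovered factors in edgeR and DESeq2, and Rps18 to 0.041 with length and GC offsets. When 1 library was left out, Rps29 ranged from -0.27 to 0.040, Fau from -0.22 to 0.0046, Rps18 from -0.053 to 0.020 and Rps14 from -0.049 to 0.12. Rps9 was called in all 14 other settings. Rps27l, Rps23, Rps7 and Rps4x were each called in 10 of them, and Rps10 and Rpsa in 9. With 2 libraries a group, a member with few counts, such as Fau (standard error 0.15), could fall by the median amount without passing.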

Other observations

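Rack1, a protein of the 40S head that the naming rule leaves out, was counted 546 and 592 times in the controls against 927 and 826 after depletion, a log2 fold change of -0.10 (standard error 0.07, adjusted p 0.459 in edgeR). Genes with similar names that are no ribosomal proteins were at -0.09 (Rps19bp1) and 0.07 (Rps23rg1), and the pseudogene Rps18-ps6, with 5 and 12 counts before and 11 and 20 after depletion, was at 0.14 (standard error 0.46). None of these passed the test.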
